A study of Danio rerio with 8 samples.

Results

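Whole wild type zebrafish larvae at 5 days post fertilization were described on their own, as the baseline of a study of the selenoprotein gene seph. They make up 4 of the 8 libraries of the series and were chosen by their genotype label alone, with no measured value involved. The other 4 libraries come from larvae mutant for seph and do not enter any value given here. Each wild type library holds polyadenylated RNA of intact larvae, extracted with TRIzol and sequenced by standard Illumina methods. The labels name no strain, no number of larvae per library and no clutch, so the spread between the 4 libraries is that of these samples and may be partly technical. The targeted gene, now named selenoh, was present in every wild type library, at 15.3, 15.2, 22.7 and 14.4 CPM (counts per 1000000 counts of the library) in replicates 1 to 4. Its counts equal those of another listed ID, so they cannot be assigned to 1 of the 2. Since the whole animal was sampled, fewer cells of a type and less RNA per cell cannot be told apart in any value below.

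At this age a zebrafish larva has hatched, swims, hunts by sight and has used up most of its yolk. Trunk muscle makes up much of its body, and fast fibres, which power swimming bursts, form the bulk of that muscle. Liver, exocrine pancreas and gut are already at work, a keratin-rich epidermis covers the body, and the lens of the eye is packed with crystallins, the soluble proteins that make it transparent. The question put to the data is which of these tissue programmes take the most sequenced RNA, and how evenly the libraries share them.

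The libraries held 55696250, 56409917, 53865807 and 51246749 counts in replicates 1 to 4. A count of 0 allows a level of up to 3 counts, which is 0.0532 to 0.0585 CPM here, and such limits cover counting error only. Of 32434 listed genes, 527 had 0 counts in all 4 libraries. A mean CPM of 1 or more was reached by 22583 genes, of 10 or more by 12263, of 100 or more by 1343 and of 1000 or more by 118. CPM is a share of counted reads and grows with transcript length, and transcript lengths were not used here. A rank therefore orders genes by the reads they took, not by numbers of transcripts.

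Replicate 3 stood apart from the other 3 libraries. Between replicates 1 and 2 only 0.399% of the 22583 genes differed at least 2-fold, and between replicate 4 and either of them 1.57% and 1.59% did. Between replicate 3 and the others the share was 7.36%, 6.55% and 6.37%. Replicates 1 and 2 were the closest pair, but their mean squared difference was still 8.1 times that of counting noise, and they were counted as separate samples. The remaining pairs reached 34.6 to 146 times. For several of the shares and CVs that rest most on replicate 3, the value over the other 3 libraries is given as well.

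A small number of genes took a large part of the sequenced RNA. The 10 genes with the highest mean CPM held 10.5% ± 0.816 of all counts (SD, n = 4), the first 100 held 29.5% ± 2.5 and the first 1000 held 57.9% ± 2.26. Replicate 3 was the least concentrated: its share for the first 100 genes was 25.9%, against 29.6% to 31.4% in the other libraries. It took 671 genes to reach 50% of the counts in replicate 3, and 460, 427 and 528 in replicates 1, 2 and 4. Without replicate 3 the first 100 genes held 30.7% ± 0.975 (n = 3).

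**Figure D1:**
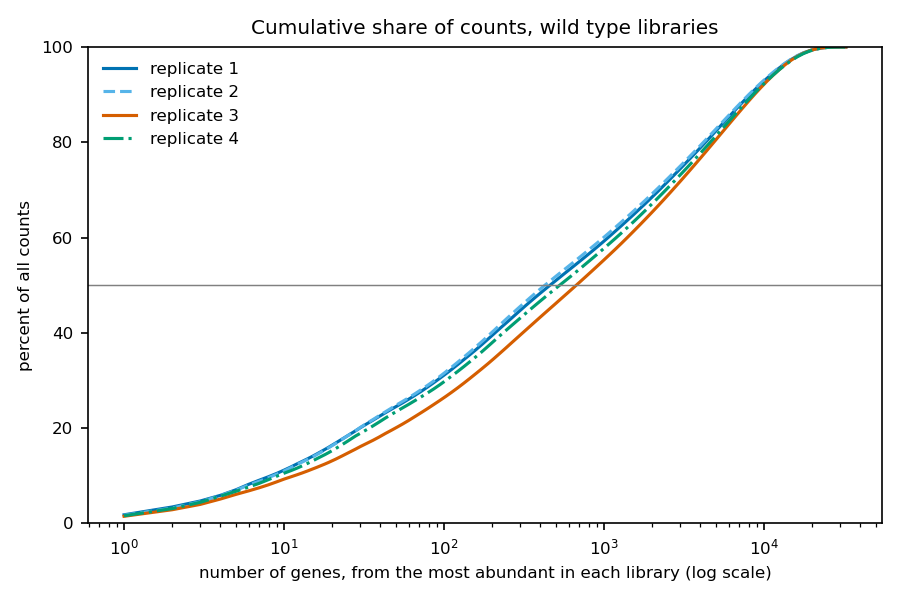
Cumulative percent of all counts (vertical axis) held by the most abundant genes of each wild type library (horizontal axis, number of genes, log scale), 1 line per replicate, with a grey line at 50%. The line of replicate 3 runs below the other 3 and crosses 50% at 671 genes, while those of replicates 1, 2 and 4 cross at 460, 427 and 528 genes.

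The order of the leading genes was largely shared between libraries. Of the 10 leading genes by mean CPM, 8 were among the first 10 of every library. Likewise 35 of the first 40, 73 of the first 100 and 791 of the first 1000 kept that place in every library. Leaving out replicate 3 kept all 10 of the first 10, 38 of the first 40 and 96 of the first 100. The first 100 genes held 18 cytosolic ribosomal proteins, 16 fast muscle genes, 8 exocrine pancreas genes, 8 keratin and epidermis genes, 4 hepatocyte genes and 4 lens genes. A further 14 carried no symbol in the gene table used, and together these took 3.67% of the counts.

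**Figure D2:**
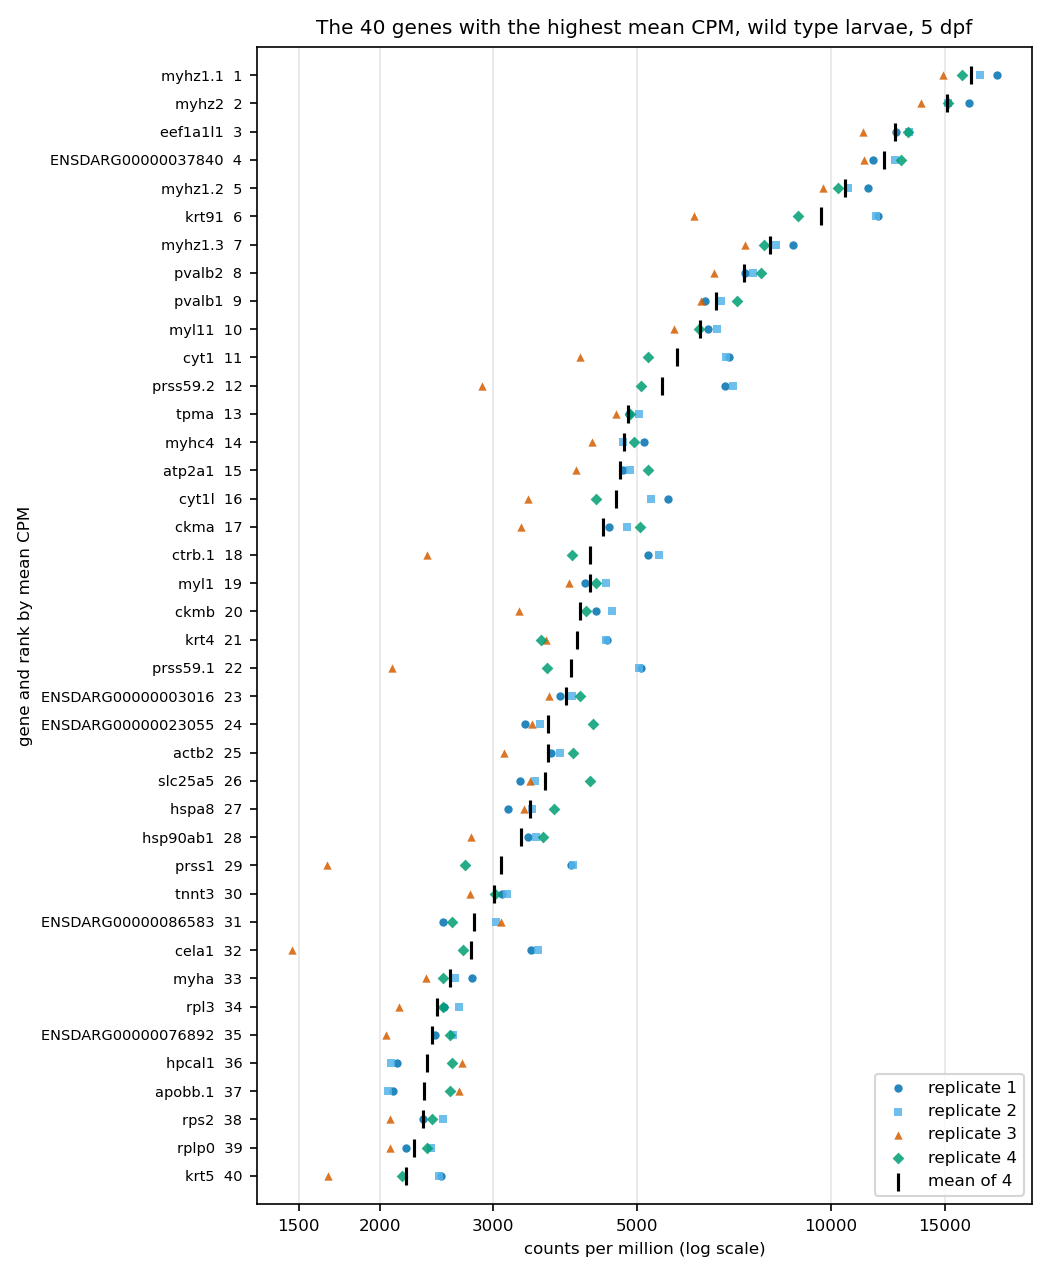
CPM (horizontal axis, log scale) of the 40 genes with the highest mean CPM in the 4 wild type libraries (rows, with rank), 1 marker per replicate and a bar for the mean. The fast myosin genes at the top lie close together across libraries, with highest over lowest ratios of 1.17 to 1.21, while the trypsin gene prss59.2 spans a ratio of 2.45 with replicate 3 at the low end.

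Fast skeletal muscle was the leading programme. Its list of 58 gene IDs took 11.1%, 10.9%, 9.63% and 10.7% of all counts in replicates 1 to 4, a mean of 10.6% ± 0.657 (SD, n = 4). All 58 members had a mean of at least 1 CPM, 34 ranked among the first 1000 genes, and 13 of the first 40 came from this list. The libraries differed little, with replicate 3 the lowest, and without it the share was 10.9% ± 0.178 (n = 3).

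The contractile motor came first. The fast myosin heavy chain gene myhz1.1 (ENSDARG00000067990), which encodes the motor protein of the thick filament, ranked 1 in every library, at 18060, 17018, 14909 and 15965 CPM in replicates 1 to 4. The related myhz2 (ENSDARG00000012944) ranked 2 in every library, at 16374, 15178, 13765 and 15160 CPM. With myhz1.2, myhz1.3, myha and myhc4, these 6 heavy chain genes took 5.75% ± 0.419 of all counts (SD, n = 4). Of the 6, myhc4 was not in the muscle list as written, so this share is not wholly part of the list's share. Each of the 6 genes was lowest in replicate 3 and highest in replicate 1. Near-identical members of this family can exchange reads, and how reads matching several genes were counted is not given, so the split between them is uncertain.

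The rest of the fast fibre followed within the first 40 genes. The parvalbumins pvalb2 and pvalb1, calcium buffers that speed relaxation, averaged 7330 ± 519 and 6649 ± 403 CPM. The tropomyosin gene tpma, whose product lies along the actin filament, had 4862, 5036, 4640 and 4884 CPM in replicates 1 to 4, with a CV (SD over mean) of 3.37%. The myosin light chain gene myl1 averaged 4229 ± 242 CPM, and myl11, which the muscle list as written did not hold, averaged 6265 ± 401 CPM. The creatine kinase gene ckma, which regenerates ATP from creatine phosphate, had 4535, 4828, 3306 and 5059 CPM, a CV of 17.6% with replicate 3 the lowest and of 5.46% without it. The calcium pump gene atp2a1 had 4771, 4878, 4028 and 5202 CPM, a CV of 10.5% that was 4.54% without replicate 3, again the lowest.

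The other muscle types took far smaller shares. The slow muscle list of 12 IDs held 0.0643% ± 0.00371 of counts, the cardiac list of 18 IDs 0.0621% ± 0.00721 and the smooth muscle and mural cell list of 16 IDs 0.0751% ± 0.00363 (SD, n = 4 each). Members that fibre types share were kept in 1 list only, and entries that matched no ID are missing. These shares are therefore not complete, and whether their genes are specific to 1 muscle type was not tested. In the slow list the light chain gene myl10 had 279, 292, 296 and 304 CPM in replicates 1 to 4 and a CV of 3.65%, with no library apart. In the cardiac list the actin gene actc1a had 247, 264, 361 and 223 CPM, highest in replicate 3. Of the 16 cardiac members at 1 CPM or more, 7 were highest and 7 lowest in replicate 3, against 46.3% and 27.9% of all 22583 genes. The smooth muscle actin gene acta2 averaged 164 ± 18.3 CPM and the tropomyosin gene tpm1 230 ± 10.5 CPM.

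The protein synthesis machinery was the next block. The 71 cytosolic ribosomal protein IDs took 6.14%, 6.59%, 5.71% and 6.48% of counts in replicates 1 to 4, a mean of 6.23% ± 0.394 (SD, n = 4), and 70 of them ranked among the first 1000 genes. Its leading member took only 3.95% of the list's counts, so the block is broad. The leaders were rpl3 (2457 ± 217 CPM), rps2 (2334 ± 184 CPM) and rplp0, of the ribosomal stalk (2263 ± 152 CPM). Replicate 3 was the lowest library for 67 of the 71 genes, where 27.9% of all 22583 genes had their lowest value in it. That share was higher for abundant genes, at 37.3% for genes of 100 to 1000 CPM and 73.7% for genes of 1000 CPM or more. In size the difference of the ribosomal genes was small, with a median of -0.15 on the log2 scale from the other 3 libraries. With TMM scaling factors this median was -0.25.

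Translation factors took 2.15% ± 0.120 of counts, and a single gene accounted for 58.3% of that. This was eef1a1l1 (ENSDARG00000020850), an elongation factor that delivers aminoacyl-tRNA to the ribosome, at 12625, 13222, 11197 and 13166 CPM in replicates 1 to 4. It ranked 3 by mean CPM and was lowest in replicate 3. The poly(A)-binding protein gene pabpc1a was even across libraries, at 1033, 1084, 1063 and 1054 CPM. Among 79 cytoskeletal and housekeeping IDs, which took 3.60% ± 0.230, the beta actin gene actb2 averaged 3649 ± 374 CPM, and the chaperone genes hspa8 and hsp90ab1 averaged 3417 ± 236 and 3312 ± 368 CPM.

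The skin was the next tissue. The epidermis and keratin list of 49 IDs took 4.07%, 4.00%, 2.57% and 3.22% of counts in replicates 1 to 4, a mean of 3.46% ± 0.713 (SD, n = 4). Replicate 3 was the lowest and replicate 4 lay between it and the near-equal replicates 1 and 2; without replicate 3 the share was 3.76% ± 0.474 (n = 3). The keratin gene krt91 (ENSDARG00000036830), an intermediate filament gene ranked 6, had 11811, 11738, 6147 and 8887 CPM, a CV of 28.0%. The keratins cyt1 and cyt1l had CVs of 23.9% and 21.4% with the same order of libraries. Without replicate 3 the CVs of krt91, cyt1 and cyt1l were 15.4%, 15.5% and 13.1%. The keratin gene krt5 had 2494, 2473, 1663 and 2169 CPM. For krt4 replicates 3 and 4 were nearly equal, at 3622 and 3553 CPM, against 4494 and 4491 in replicates 1 and 2. Over the whole list, 33 of 49 members had their lowest value in replicate 3, against 27.9% of all 22583 genes. For genes of 1000 CPM or more that share was 73.7%.

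The exocrine pancreas, which makes digestive enzymes as inactive precursors, took a large share from few genes. Its 32 IDs held 3.54%, 3.58%, 1.6% and 2.58% of counts in replicates 1 to 4, a mean of 2.83% ± 0.940 (SD, n = 4), and 3 genes accounted for 48.4% of it. The highest library held 2.24 times the share of the lowest, the widest range among the lists with a mean of at least 1% of counts. Without replicate 3 the share was 3.24% ± 0.566 (n = 3).

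The leading protease genes were lowest in the same library. The trypsin gene prss59.2 (ENSDARG00000073742), ranked 12, had 6859, 7048, 2880 and 5082 CPM in replicates 1 to 4, and its neighbour prss59.1 had 5082, 5050, 2090 and 3629 CPM. The chymotrypsin gene ctrb.1 had 5212, 5409, 2368 and 3967 CPM, and the elastase gene cela1, outside the list as written, had 3426, 3521, 1465 and 2693 CPM. In each of the 4, replicate 3 was the lowest and replicate 4 the next. Without replicate 3 the CV of prss59.2 was 17.1%, against 35.5% over all 4 libraries. The starch-digesting amylase gene amy2a spread less, at 631, 622, 464 and 640 CPM, with replicate 4 level with replicates 1 and 2. It was chosen after its values were seen. Of the 32 members, 27 were lowest in replicate 3, against 27.9% of all genes and 73.7% of genes of 1000 CPM or more. There 12 members lay at least 2-fold below the mean of the other libraries, as did 2.35% of all 22583 genes. This is on the scale of log2(CPM + 0.5).

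Hepatocyte genes took 1.5% ± 0.166 of counts over 99 IDs, and the libraries ranked them differently from gene to gene. The secreted inhibitor gene fetub had 1623, 1866, 980 and 1365 CPM in replicates 1 to 4, lowest in replicate 3. The lipoprotein gene apoa2 had 1221, 1534, 1980 and 1124 CPM, and was highest in replicate 3. The summed share therefore spread less, between 1.31% and 1.69%, than these members did. Of the 97 members at 1 CPM or more, 50 were lowest and 26 highest in replicate 3, against 27.9% and 46.3% of all 22583 genes. There 11 lay at least 2-fold below the other libraries and 2 at least 2-fold above, against 2.35% and 3.57% of all genes.

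Genes of lipid transport that liver, gut and yolk syncytial layer share had their highest summed share in replicate 3. The 6 IDs of that list took 0.370%, 0.389%, 0.578% and 0.428% of counts in replicates 1 to 4. The apolipoprotein gene apoa1a had 615, 695, 1360 and 709 CPM, and apoeb had 554, 619, 990 and 535 CPM. The gene of the large lipoprotein scaffold, apobb.1, ranked 37 at 2101, 2062, 2655 and 2568 CPM. Its count followed that of hpcal1, ranked 36 and its next coding neighbour in the RefSeq gene table, with hpcal1 above it by 1.25%, 1.19%, 1.23% and 0.859% in replicates 1 to 4. Whether both counts come from the same reads cannot be settled from a count table, so both values are uncertain. In the intestine list, with 0.553% ± 0.0453 of counts over 49 IDs, apoa4b.1 of dietary fat transport had 766, 821, 1220 and 930 CPM, while the fatty acid binding gene fabp2 averaged 454 ± 42.1 CPM.

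The eye was visible in both its lens and its retina. The 62 lens IDs took 2.26%, 2.24%, 1.72% and 1.97% of counts in replicates 1 to 4, a mean of 2.05% ± 0.256 (SD, n = 4) and 2.16% ± 0.160 without replicate 3, and 30 of them ranked among the first 1000 genes. A group of 18 gamma M2 crystallin IDs with symbols beginning crygm2d alone held 1.34% ± 0.152. The leaders crygm2d5, crygm2d18 and crygm2d10 averaged 1407 ± 137, 1334 ± 150 and 1170 ± 149 CPM. The list is broad, its leading member taking 6.87% of its counts. Of the 54 members at 1 CPM or more, 38 were lowest in replicate 3. That held for 27.9% of all genes, 37.3% of genes of 100 to 1000 CPM and 73.7% of genes of 1000 CPM or more. These crystallins are close copies of each other, and their separate values are uncertain for the reason given for the myosins.

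Photoreceptor genes, 68 IDs, took 0.496% ± 0.0579 of counts. The rod opsin gene rho had 610, 629, 1003 and 548 CPM in replicates 1 to 4, highest in replicate 3. The red cone opsin gene opn1lw2 averaged 519 ± 51.3 CPM and the green cone opsin gene opn1mw2 had 425, 407, 368 and 540 CPM, highest in replicate 4. The blue cone opsin gene opn1sw2 had 257, 252, 255 and 371 CPM, with replicate 4 again above the other 3 libraries, and was chosen after its values were seen, as was arr3. That cone arrestin gene, which ends the light response, had 240, 223, 722 and 250 CPM, so the photoreceptor genes did not share an order of libraries.

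Neuronal genes took 1.07% ± 0.103 of counts over 91 IDs, with 26 among the first 1000 genes and none among the first 100. The tubulin genes tuba1a and tuba1c, whose products form axonal microtubules, had 540, 572, 913 and 502 CPM and 508, 535, 906 and 440 CPM in replicates 1 to 4. Chosen after their values were seen, syt1, the calcium sensor of vesicle release, had 313, 290, 304 and 300 CPM, and the neuronal RNA-binding gene elavl3 had 146, 133, 152 and 146 CPM. Over the list, 53 of 91 members were highest in replicate 3, as were 46.3% of all 22583 genes. The summed share was 1.22% in replicate 3 and 1.02% in each of the others. Genes of glia and neural progenitors took 0.192% ± 0.0636 of counts, and 0.160% ± 0.00461 without replicate 3. The astroglial filament gene gfap had 158, 156, 162 and 158 CPM. In the same list ptgdsb.1, a prostaglandin D synthase gene of the lipocalin family, had 57.9, 59.4, 855 and 95.8 CPM, and the brain fatty acid binding gene fabp7 had 138, 144, 303 and 128 CPM.

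Skeletal and connective tissue genes were the next group. Collagens, fibroblast and bone genes took 0.731% ± 0.0996 of counts over 58 IDs, led by the type I collagen gene col1a1a at 1241, 1347, 1503 and 1212 CPM in replicates 1 to 4. Cartilage and notochord genes took 0.345%, 0.357%, 0.570% and 0.296%, and averaged 0.333% ± 0.0321 without replicate 3. The main cartilage collagen gene col2a1 (ENSDARG00000069093) had 901, 965, 1640 and 735 CPM, and col11a1 had 421, 422, 635 and 304 CPM. Of the 29 cartilage members at 1 CPM or more, 21 were highest in replicate 3 and 18 lowest in replicate 4. Of all 22583 genes, 46.3% were highest in replicate 3 and 18.5% lowest in replicate 4.

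Blood, immune, endocrine and germ line programmes were detected at small shares. Erythroid genes took 0.185%, 0.239%, 0.289% and 0.116% of counts in replicates 1 to 4, led by the embryonic alpha globin genes hbae1.2, hbae1.3 and hbae1.1. The first of these had 559, 737, 926 and 319 CPM, a 2.90-fold range with replicate 4 the lowest, and the other two kept the same order of libraries. Most beta globin entries of the list matched no gene ID, so the erythroid share covers alpha globins for the greater part. Macrophage and neutrophil genes took 0.0378% ± 0.00621 over 47 IDs, and endothelial and thrombocyte genes 0.0320% ± 0.000622 over 25 IDs. The vascular cadherin gene cdh5 averaged 31.3 ± 2.29 CPM, and the adaptive immunity gene rag1, which cuts antigen receptor loci in lymphocytes, had 6.75, 5.67, 5.09 and 7.84 CPM.

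The 31 IDs of the list for endocrine pancreas and gut hormones took 0.0703% ± 0.00145 of counts, and 3 secretory granule genes held 45.7% of that, among them scg2b and scg3 at 145 ± 8.96 and 96.0 ± 2.86 CPM. In whole larvae the tissue that these granule transcripts came from cannot be told, so the share is not that of pancreas and gut alone. Chosen after its values were seen, the insulin gene ins had 11.4, 12.6, 9.25 and 14.4 CPM in replicates 1 to 4. In the pituitary list, which also holds the thyroglobulin gene, the growth hormone gene gh1 averaged 13.8 ± 3.05 CPM. The thyroglobulin gene tg, the precursor of thyroid hormone, had 59.8, 56.4, 11.3 and 11.6 CPM, with replicates 1 and 2 apart from replicates 3 and 4. The germ cell helicase gene ddx4 had 3.29, 2.80, 3.34 and 3.67 CPM, and the germ cell list as a whole took 0.00410% ± 0.000483 of counts.

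Glycolytic genes, 0.524% ± 0.0430 of counts over 17 IDs, differed in direction between copies of 1 enzyme. The glyceraldehyde phosphate dehydrogenase gene gapdh had 1732, 1840, 1178 and 1969 CPM in replicates 1 to 4, lowest in replicate 3, while its copy gapdhs had 467, 502, 827 and 545 CPM, highest there. Ionocyte and kidney genes took 0.371% ± 0.0356 over 37 IDs, with 0.386%, 0.366%, 0.324% and 0.408% in replicates 1 to 4, lowest in replicate 3.

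Pigment cell genes took 0.0803% ± 0.00890 of counts over 27 IDs, led by pmela of the melanosome matrix at 181 ± 11.6 CPM. Genes of hair cells, ear and swim bladder took 0.0700% ± 0.00554 over 29 IDs. Their leading member stm, which shapes the otoliths of the ear, had 127, 130, 196 and 259 CPM in replicates 1 to 4, with replicates 1 and 2 below the other pair. The mucin gene muc5.1 of mucus cells had 153, 95.8, 168 and 201 CPM, lowest in replicate 2.

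Genes of hatching and of yolk precursors lay at the bottom. The hatching enzyme gene he1.1, whose product digests the egg envelope, had 8, 4, 20 and 13 counts in replicates 1 to 4, or 0.144, 0.0709, 0.371 and 0.254 CPM. Vitellogenin genes, which encode the yolk precursor made in the female liver, took 0.000640% of counts over 8 IDs, and vtg1 averaged 0.612 ± 0.253 CPM. All 13 mitochondrially encoded genes were listed at 0 in every library. Genes that every cell uses are among them, so this says only that the table lists them at 0. Nuclear genes of oxidative phosphorylation took 1.5% ± 0.225 over 91 IDs, led by slc25a5, which exchanges ADP and ATP across the inner mitochondrial membrane, at 3296, 3486, 3424 and 4231 CPM. An ID without a symbol, ENSDARG00000023055, had counts within 2% of slc25a5 in every library, and both are uncertain.

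**Figure D3:**
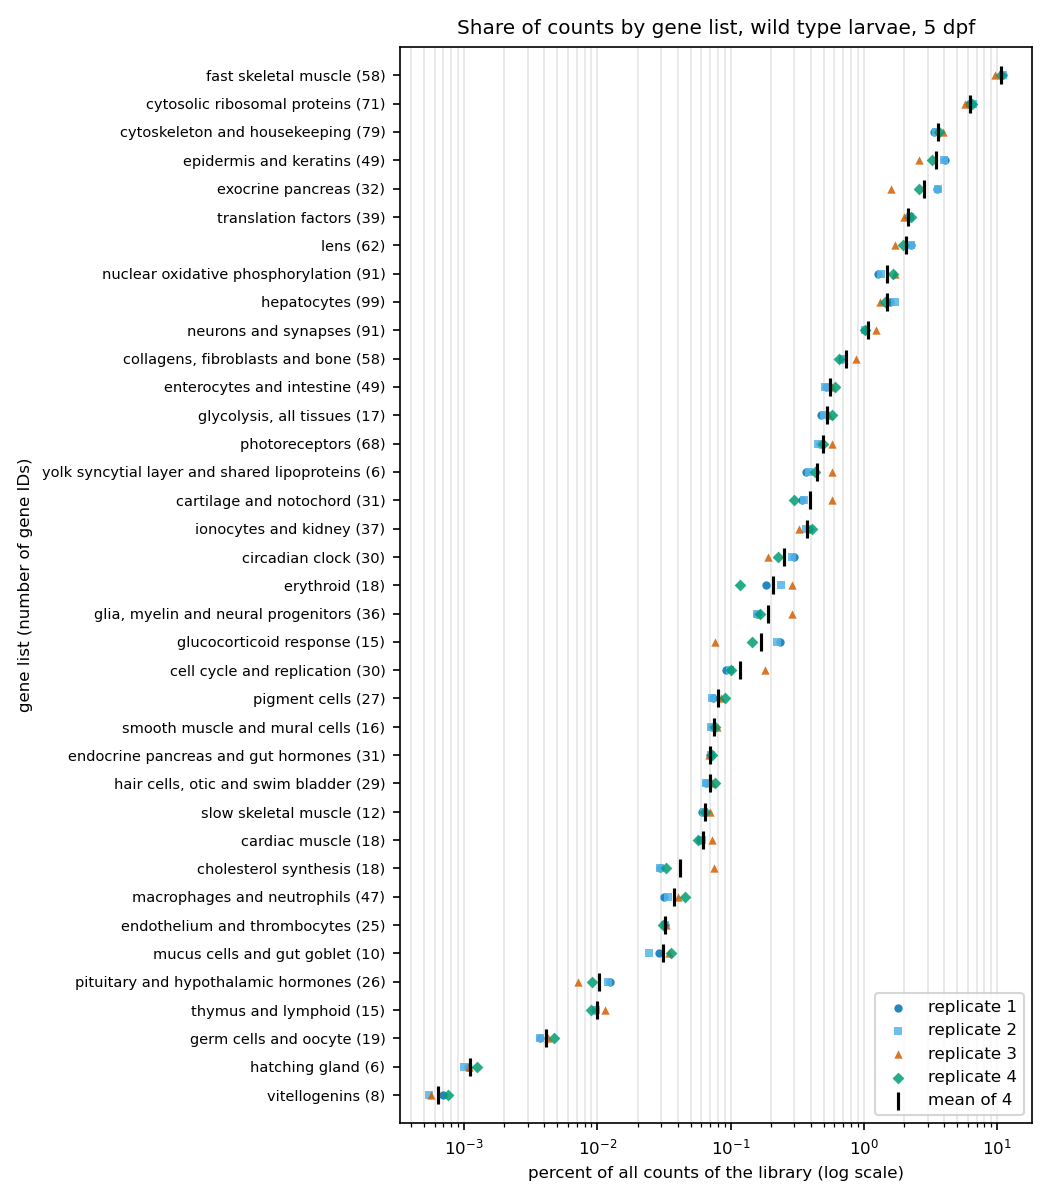
Percent of all counts of the library (horizontal axis, log scale) for each gene list with counts (rows, with the number of gene IDs), 1 marker per wild type replicate and a bar for the mean of 4. Fast muscle leads at 10.6% and the vitellogenins close the order at 0.000640%, and the libraries lie farthest apart for glucocorticoid response, cholesterol synthesis, erythroid and exocrine pancreas genes.

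The spread between libraries exceeded that of counting. Genes of 10 to 100 CPM had a median CV of 13.0% where counting alone gives 2.78%, and genes above 1000 CPM had 9.51% where counting gives 0.361%. The biological coefficient of variation common to all genes was 22.5%, and 14.6% without replicate 3. Over the 22583 genes the median CV fell to 9.76% without replicate 3, against 15.8% with all 4 libraries. Leaving out any other library gave 15.1% to 16.5%.

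**Figure D4:**
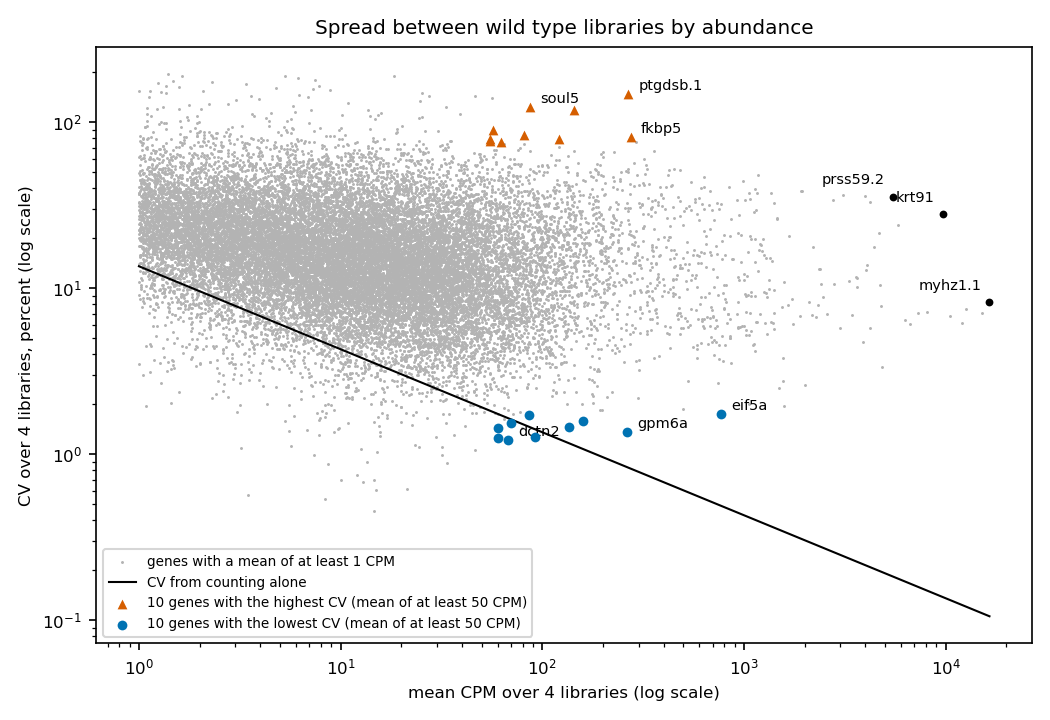
CV over the 4 wild type libraries in percent (vertical axis, log scale) against mean CPM (horizontal axis, log scale) for the 22583 genes of 1 CPM or more on average (grey), with the CV from counting alone as a line, the 10 highest-CV genes as triangles and the 10 lowest-CV genes as circles. Most genes lie above the line, ptgdsb.1 has the highest CV of the named genes at 147% (30.3% without replicate 3), and the most abundant genes lie far above the counting line.

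Of 2432 genes that have a symbol and average 50 CPM or more, the 10 with the lowest CV lay between 1.21% and 1.75%, which for several of them is no more than counting alone gives. They included dctn2, gnai1, klc4, gpm6a, mcf2l, ppm1a, gfap, itpr3 and eif5a. Among these, dctn2 of the dynactin motor complex had 66.2, 67.6, 68.0 and 67.7 CPM in replicates 1 to 4, and the translation factor gene eif5a had 761, 780, 752 and 778 CPM.

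The 10 with the highest CV were ptgdsb.1, soul5, ptgdsb.2, both IDs named rrm2, rrm1, meltf, fkbp5, rhcg and lonrf1. Replicate 3 was the highest library for 8 of them and the lowest for the other 2, against 46.3% and 27.9% of all 22583 genes. They were chosen for their spread over these same libraries, so the choice favours a library that stands apart. The heme-binding family gene soul5 had 32.9, 33.4, 247 and 34.2 CPM in replicates 1 to 4, with only replicate 3 apart. The ammonia transporter gene rhcg had 214, 188, 12.8 and 67.9 CPM, and fkbp5, a co-chaperone of the glucocorticoid receptor, had 498, 431, 61.1 and 106 CPM. In both of these replicate 4 lay between replicate 3 and the other pair, and without replicate 3 their CVs were still 49.8% and 60.7% (n = 3).

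The widest ranges between libraries were found for the glucocorticoid response, 3.09-fold, and for cholesterol synthesis, 2.55-fold. The glucocorticoid response list of 15 IDs took 0.236%, 0.222%, 0.0763% and 0.144% of counts in replicates 1 to 4. Without replicate 3 the mean was 0.201% ± 0.0495. Of its members, 12 of 15 were lowest in replicate 3 and 8 lay at least 2-fold below the other libraries there, against 27.9% and 2.35% of all 22583 genes. They include the transcription factor gene cebpd at 413, 404, 68.2 and 252 CPM. Cholesterol synthesis went the other way, at 0.0293%, 0.0294%, 0.0748% and 0.0326%, with a mean of 0.0304% ± 0.00185 without replicate 3. All 18 of its members were highest in replicate 3, 11 of them at least 2-fold, against 46.3% and 3.57% of all genes. Among them is srebf2, the transcription factor of the pathway, at 45.0, 44.6, 121 and 59 CPM. The other leading members differed far less, with hsd17b7 at 57.9, 58.5, 61.1 and 52.3 CPM and ldlra at 49.6, 52.1, 61.6 and 53.8 CPM. The sterol enzyme gene msmo1, chosen after its values were seen, had 6.36, 6.95, 87.4 and 9.62 CPM. All lists were chosen with earlier results of these data known. Counts of members set against all genes, here and in other paragraphs, therefore describe the lists and are no separate support.

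Cell cycle genes were also high in replicate 3. Of 29 members at 1 CPM or more, 28 were highest there and 26 lay at least 2-fold above the other libraries, as did 3.57% of all 22583 genes. The replication clamp gene pcna had 79.3, 86.2, 227 and 88.4 CPM in replicates 1 to 4, the proliferation marker gene mki67 had 53.9, 59.8, 144 and 55.6 CPM, and rrm1, which makes deoxynucleotides, had 32.2, 35.8, 121 and 31.9 CPM. The exception, 1 of 2 IDs named stmn1 (ENSDARG00000033655), had 369, 369, 198 and 408 CPM. It was the leading member, so the summed share, 0.0927%, 0.0990%, 0.180% and 0.101%, differed less between libraries than most members did. Without replicate 3 it was 0.0975% ± 0.00427.

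Circadian clock genes split in both directions. Of 30 members, 7 lay at least 2-fold above and 13 at least 2-fold below the other libraries in replicate 3, against 3.57% and 2.35% of all genes. The nuclear receptor gene nr1d1, a repressor within the clock, had 340, 336, 16.7 and 218 CPM in replicates 1 to 4, a 20.4-fold range. The other leading members differed less, with bhlhe40 at 252, 248, 164 and 222 CPM and cry3a at 212, 200, 289 and 185 CPM. Chosen after their values were seen, the clock output gene dbpb had 153, 155, 7.85 and 126 CPM, and ciarta had 133, 138, 20.7 and 108 CPM. The genes per2 and cry5, which light induces in zebrafish, were chosen in the same way and had 15.5, 12.6, 147 and 10.7 CPM and 4.08, 3.63, 32.1 and 3.55 CPM. In these 4 genes replicate 3 was alone on either side, but a choice made after the values were seen favours such genes. Over the list 13 of 30 members were lowest in replicate 4, against 18.5% of all genes, and the list took 0.300%, 0.290%, 0.190% and 0.226% of counts. The hour at which each sample was taken is not given, and its part in these values was not tested.

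**Figure D5:**
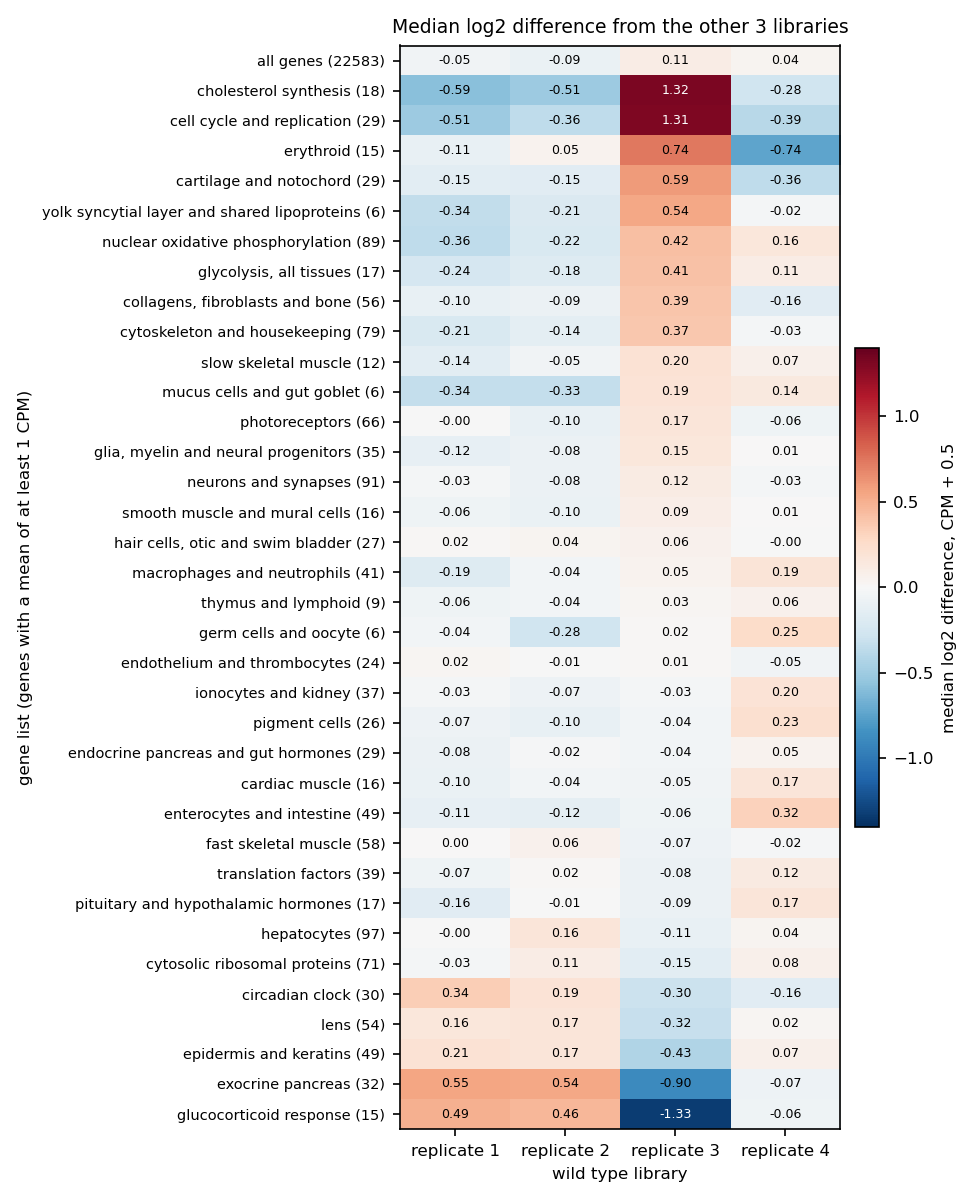
Median over the genes of each list of the log2 difference in CPM + 0.5 between a wild type library and the mean of the other 3 (columns, replicates; rows, lists with at least 5 genes of 1 CPM or more, ordered by replicate 3; all genes on top). Replicate 3 runs from 1.32 for cholesterol synthesis to -1.33 for glucocorticoid response, and all genes have a median of 0.11 in it; with TMM factors 6 lists of small median change sign in replicate 3: endothelium, germ cells, hair cells, macrophages, smooth muscle and thymus.

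Read over all lists, replicate 3 had the highest share for 16 of the 37 lists with counts and the lowest for 12. Replicate 4 had the highest share for 12 and the lowest for 6. The highest share was under 1.5 times the lowest for 26 lists and at least 2 times for 4. Against an all-gene median of 0.11, the median log2 difference in replicate 3 was 0.59 for cartilage and notochord, 0.42 for nuclear oxidative phosphorylation, -0.32 for lens, -0.43 for epidermis and keratins and -0.90 for exocrine pancreas. The all-gene value depends on the scaling and was 0.013 with TMM factors. The list medians were then 0.49, 0.32, -0.42, -0.51 and -0.99, in the same order. Another scaling, filter or pseudocount changed the sign for 8 of the 37 lists, none with a median beyond 0.09 in size. In replicate 4 the median was -0.74 for erythroid genes, -0.39 for the cell cycle, -0.36 for cartilage and notochord and 0.32 for intestinal genes. The last of these was 0.16 with a pseudocount of 5 CPM. The cell cycle value was not particular to replicate 4, being -0.51 and -0.36 in replicates 1 and 2. Each of these libraries was set against a mean that held the high replicate 3.

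Many of the leading genes sit beside each other in the genome. Of the first 100 genes, 70 could be placed by a unique symbol in the RefSeq gene table (assembly GRCz12tu), and 21 of these, 30%, lay next to another of the 100 with at most 1 coding gene between. For the 5 following sets of 100 genes by rank the share ran between 3.85% and 15.2%. The neighbours were family members in all but 1 pair: the fast myosin genes from myhz2 to myhz1.1, the keratins from krt1-19e to krt91, prss59.1 with prss59.2, ctrb.1 with ctrb.2, ela2 with ela2l and 2 gamma crystallins. The exception is the pair of hpcal1 and apobb.1 described above. Within the myosin group the count ratio of myha to myhz1.3 held between 0.319 and 0.321 in the 4 libraries, while that of krt1-19e to krt92 was 1.67 in replicate 3 and 0.841 to 0.940 in the others.

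Genes without a symbol made up 16.5% to 17.7% of the counts of each library. The leading one, ENSDARG00000037840, ranked 4 at 11626, 12554, 11255 and 12821 CPM in replicates 1 to 4. ENSDARG00000003016 ranked 23 with a mean of 3882 ± 183 CPM, ENSDARG00000086583 ranked 31 with 2802 ± 297 CPM and ENSDARG00000076892 ranked 35 with 2413 ± 256 CPM. The gene lists together took 40% ± 2.15 of counts, and genes with a symbol but in no list took 43.1% ± 1.62. The programmes above therefore describe less of the sequenced RNA than they leave out.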

How the data were processed

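The authors deposited raw counts, whole numbers of reads for each Ensembl gene, in a column per sample. STAR 2.3.0e and HTSeq 0.6.0 were used, per the submitters' processing notes; the sources used here do not give the genome build, annotation, strand setting or treatment of reads matching several genes. The 4 wild type columns were scaled to CPM by their totals, with no filter unless stated and no comparison between groups. Gene symbols came from an Ensembl gene table, which named 20769 of 32434 IDs, and are printed in lower case. Reads shared between paralogs, overlapping or antisense genes make such values uncertain: 308 genes with at least 20 counts had the same 4 counts as another, 6 of them with a mean of at least 1 CPM and 0 with at least 50 CPM. One such gene is selenoh, whose 4 counts equal those of ENSDARG00000059124.

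The 38 gene lists hold 1654 entries. Of these 1285 matched, giving 1386 IDs: 1051 through the symbol, 185 through synonyms of the RefSeq table (assembly GRCz12tu) and 150 by the symbol without its final a or b; 4 IDs that fell in more than 1 list were left out. The members and lists were chosen with earlier results of these data known. The text names the 40 genes with the highest mean CPM, up to 3 leading members of each list, the 10 genes with the highest and the 10 with the lowest CV among genes with a symbol and at least 50 CPM, and selenoh, he1.1 and vtg1; others are marked as chosen after their values were seen. Some genes that this rule covers are not reported here. Differences of a library are log2(CPM + 0.5) minus the mean of the other 3.

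Dispersions, TMM factors and the filterByExpr set of 25270 genes (minimum count 10) came from edgeR 4.0.16, and other size factors from DESeq2 1.42.0, in R 4.3.3. Python 3.11.15, pandas 2.3.3 and numpy 2.4.6 did the rest. The steps were tested on simulated counts. Alternatives were both kinds of scaling factor, the filter, a pseudocount of 5 CPM, medians in place of means, 1 gene of each identical set, and leaving out each library. Matching by symbol alone and 8 added symbols were chosen after the data were seen.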

Additional observations from a re-analysis of the deposited data

Results flagged for a closer look

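For each of 37 gene lists and 152 named genes, the gap between the highest or lowest library and its nearest neighbour was divided by the range of the 4 libraries and set against Dixon's critical value for groups of this size. Chance passes about 1 in 20 such groups, a rate that does not hold for genes chosen by their CV over the same libraries. The values that passed were 4 list shares and 16 genes. Of the genes, 7 had been chosen for a high CV, and 9 were among the 132 not chosen by CV. The latter count is near the 1 in 20 of chance, and the share over all 22583 genes was not computed. Among the values that passed, replicate 3 was alone at the top in 18, replicate 3 alone at the bottom in 1 and replicate 4 alone at the top in 1. All come from the same 4 libraries, so they are not separate events.

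In replicate 3 the neurons and synapses list took 1.22% of counts, against 1.02% in each of the others. The glia, myelin and neural progenitor list took 0.287% there, the cell cycle list 0.180% and the cholesterol synthesis list 0.0748%. Each of these shares was the highest of the 4 libraries. The median log2 difference of members in replicate 3 was 0.12 for neurons and 0.15 for glia, near the 0.11 of all genes. For the cell cycle and cholesterol synthesis it was 1.31 and 1.32. Of the cell cycle genes, pcna at 227 CPM and mki67 at 144 CPM also passed. So did rrm1 at 121 CPM and the 2 IDs named rrm2 at 133.7 and 118.8 CPM, which had been chosen for a high CV. In the glia list fabp7 passed at 303 CPM. So did ptgdsb.1 at 855 CPM and ptgdsb.2 at 398 CPM, both among the genes chosen for a high CV. Over the other libraries these 2 averaged 71.0 and 58.9 CPM, so they held most of the glia list's excess in replicate 3. All these genes belong to lists named above, so they add no separate support.

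Further genes with a lone high value in replicate 3 were the apolipoprotein gene apoa1a at 1360 CPM, the bone matrix gene sparc at 828 CPM, soul5 at 247 CPM, meltf at 183 CPM, the troponin gene tnnt2d at 104 CPM and selenoh at 22.7 CPM. Of these, soul5 and meltf had been chosen for a high CV. The kinase gene pdk2 (ENSDARG00000059054) had a lone low value in replicate 3, 92.1 CPM. The pituitary hormone precursor gene pomc had a lone high value in replicate 4, 13.3 CPM.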

How the results depend on the processing

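No paired analysis was possible because a single group was described and no groups were compared. A value counted as moved when it changed by more than the spread between libraries, or, without such a spread, by over 1.5 times. For the median CV the spread used was 3.19, the SD of its values with each library left out. That SD includes the value that moved. Of 43 summary values, 2 moved when a library was left out, both without replicate 3. The median CV fell to 9.76% and the common biological coefficient of variation to 14.6%. Over all single-library omissions these ran from 9.76% to 16.5% and from 14.6% to 25.2%. The other moves came from how lists were filled. With 8 abundant symbols added, fast skeletal muscle held 12% and photoreceptors 0.599% of counts. With genes matched by symbol alone, the shares were 5.79% for ribosomal proteins, 3.26% for cytoskeleton and housekeeping, 1.96% for translation factors, 0.605% for neurons, 0.475% for intestine, 0.474% for collagens, 0.398% for photoreceptors, 0.251% for glycolysis, 0.187% for the circadian clock, 0.184% for cartilage, 0.175% for ionocytes and kidney, 0.0654% for smooth muscle, 0.0644% for endocrine pancreas, 0.0562% for pigment cells, 0.0485% for slow muscle, 0.0444% for hair cells and 0.0214% for endothelium, since fewer IDs then enter. The other 395 recomputed summary values stayed within the spread. Of 456 recomputed medians per list and library, 429 stayed and 27 moved, 22 of them with TMM factors. All 1367 recomputed values of named genes stayed within the spread. Leaving out 1 of 4 libraries cannot shift a mean beyond the SD, and a median cannot differ from the mean by more than that. For gene means and list shares these outcomes were therefore fixed. The filter and the choice of 1 gene of each identical set leave a named gene's own counts unchanged. For named genes only the scaling factors could thus have given another outcome. The means did change: without replicate 3, ptgdsb.1 averaged 71.0 CPM against 267 CPM, and soul5 33.5 CPM against 87.0 CPM. Levels per coding length were not run, as no transcript or protein lengths were used here. The mitochondrially encoded list gives no value. At this depth a gene under 0.0532 CPM is at the floor.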
